A study of Mus musculus with 4 samples.

Results

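Fibroblasts and other stromal cells release cytokines that recruit, feed or alert blood-derived cells. The 8 genes followed here were the cytokine genes Il33, Kitl, Csf1, Csf2, Il15, Il18 and Tslp, and Il1rl1, which encodes a receptor chain for the Il33 product. They were listed by name, with earlier results of these data known, and every probe set that the array annotation gave to 1 of these symbols was taken. A total of 13 probe sets stood for 7 of the 8 genes, out of 45037 probe sets and 18193 genes on the array. Il1rl1 had no probe set listed in the annotation, so its signal was not analysed here.

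The cells were mouse embryonic fibroblasts (MEFs), either p65-/-, which lack the p65 (Rela) subunit of the transcription factor NF-kB, or p65+/+. All of them carried the retrovirus pBabe-HRASG12V-Hygro, which brings in the oncogenic HRAS allele G12V and resistance to hygromycin. The 4 groups were p65-/- tumour cells, p65-/- pre-injection cells, p65+/+ tumour cells and p65+/+ pre-injection cells, with 1 Affymetrix array per group. Tumour cells came from tumours of SCID mice, which lack working T and B cells but keep other immune cells. They were freed with collagenase, cultured again and kept in hygromycin for 2 weeks, and pre-injection cells were the Ras-carrying cultures before they entered a mouse. The numbers of mice, tumours and MEF lines behind an array are not given in the sources used here, so genotype and cell line cannot be told apart.

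A single array stood for each group, so neither a replicate check nor a test was possible, and a gene called "higher" or "lower" differed between 1 pair of arrays. Values are the deposited signals on a linear scale. The floor of an array was its median signal, which was 92.7 in p65-/- tumour, 87.8 in p65-/- pre-injection, 92.5 in p65+/+ tumour and 93.4 in p65+/+ pre-injection cells. A signal under its floor was set to the floor before a log2 difference was taken, which then gives an "at least" value, and a gene under the floor on both arrays was not compared. A call was a difference of 2-fold or more. Each array measured a bulk culture, so a signal from fewer cells and a lower level per cell cannot be told apart.

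Il33 encodes an alarmin of the IL-1 family that is kept in the nucleus of stromal, epithelial and endothelial cells and is released when they are damaged. It acts on mast cells, innate lymphoid cells and regulatory T cells through a receptor made of the products of Il1rl1 (also called ST2) and Il1rap. Kitl encodes stem cell factor, the ligand of the receptor tyrosine kinase Kit, and is made by stromal cells in membrane-bound and shed forms that maintain mast cells and blood stem cells. Csf1 and Csf2 encode growth factors of macrophages and of granulocytes and macrophages. Il15 supports natural killer cells and memory T cells, Il18 drives interferon gamma production, and Tslp acts on dendritic cells. Transcription of several of these genes is known to respond to NF-kB, which binds the kB motif in promoters and enhancers.

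The deposited signal of Rela checked the genotype labels. It was 209 in p65-/- tumour and 214 in p65-/- pre-injection cells, against 1457 in p65+/+ tumour and 1479 in p65+/+ pre-injection cells. Whether its probe set reads a stretch that the knockout removed is not known here. Of the 11 fibroblast markers, 10 lay at or above the floor on every array and Fap lay under it on every array. Some of these markers differed between genotypes. Pdgfra, the gene of a platelet-derived growth factor receptor, was 3.42-fold lower in p65-/- than in p65+/+ cells before injection and 4.01-fold lower in tumour cells, and the surface marker Thy1 was 12.7-fold and 2.43-fold lower. The Thy1 signal in p65-/- pre-injection cells, 88.6, lay just above the floor, and that in p65-/- tumour cells was 409. The collagen gene Col1a1 was 2.91-fold and the fibronectin gene Fn1 2.37-fold higher in p65-/- than in p65+/+ tumour cells. Another collagen gene, Col3a1, was 2.05-fold lower there. Their part in the Il33 and Kitl values was not tested. The p65-/- pre-injection array stood apart, with 11153 probe sets at a signal of at least 200, against 13015 to 13419 on the other 3 arrays, so values that rest on it are given beside those from p65-/- tumour cells.

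The following patterns were seen among the 7 genes with values. Il33 and Kitl gave lower signals in p65-/- than in p65+/+ cells in both states. The Csf1 signal passed 2-fold in no comparison and was higher in tumour cells than before injection in both genotypes. Csf2, Il15, Il18 and Tslp lay close to or under the floor on every array.

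The promoters of the 3 genes with clear signals are shown as a description of their letters. Whether these letters bear on the genotype differences was not tested. RefSeq promoter sequences of the mouse build GRCm38.p6 were used, each running from 250 bases before to 50 bases after an annotated start, read 5′ to 3′ on the gene's strand. Capitals mark matches, on either strand, to the NF-kB consensus (kB) motif of 10 letters or to the TATA box TATAAA. The 2 motifs did not overlap in these windows.
Il33, first listed start, chr19:29924863-29925162, plus strand: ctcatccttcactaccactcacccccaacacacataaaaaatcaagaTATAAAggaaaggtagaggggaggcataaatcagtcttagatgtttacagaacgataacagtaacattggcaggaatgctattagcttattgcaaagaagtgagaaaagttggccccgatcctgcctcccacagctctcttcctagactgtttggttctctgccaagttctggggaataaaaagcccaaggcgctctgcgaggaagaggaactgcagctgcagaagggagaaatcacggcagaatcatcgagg
Il33, second listed start, chr19:29945540-29945839, plus strand: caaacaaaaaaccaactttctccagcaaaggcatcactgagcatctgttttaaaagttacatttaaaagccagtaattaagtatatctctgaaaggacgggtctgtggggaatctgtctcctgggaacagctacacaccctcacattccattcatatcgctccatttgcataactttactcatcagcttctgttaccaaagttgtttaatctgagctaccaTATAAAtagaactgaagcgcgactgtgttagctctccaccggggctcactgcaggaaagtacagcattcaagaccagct
Kitl, chr10:100015571-100015870, plus strand: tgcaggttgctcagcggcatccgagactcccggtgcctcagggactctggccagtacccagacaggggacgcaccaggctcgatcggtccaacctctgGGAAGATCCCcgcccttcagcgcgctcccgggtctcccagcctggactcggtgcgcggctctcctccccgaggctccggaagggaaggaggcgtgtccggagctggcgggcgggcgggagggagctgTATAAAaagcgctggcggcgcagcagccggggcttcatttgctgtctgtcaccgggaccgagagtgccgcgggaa
Csf1, chr3:107760420-107760719, minus strand: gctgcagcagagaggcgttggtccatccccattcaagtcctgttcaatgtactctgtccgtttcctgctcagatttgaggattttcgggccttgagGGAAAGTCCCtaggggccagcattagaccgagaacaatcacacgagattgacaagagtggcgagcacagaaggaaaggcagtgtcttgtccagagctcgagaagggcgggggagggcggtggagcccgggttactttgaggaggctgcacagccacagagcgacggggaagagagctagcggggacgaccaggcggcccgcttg
The Kitl window held 1 kB match, with its leftmost base 152 bases before the start, and a TATA box 25 bases before it. The Csf1 window held 1 kB match, 154 bases before the start, and no TATA box. Neither Il33 window held these kB letters, and each held 1 TATA box, 203 and 29 bases before its start. Windows were used for 6 of the 8 members. Those of Il1rl1, Csf2 and Il18, which are not shown, held no kB match. Of all 32851 promoter windows of this length, 8.46% held a kB match and 13.6% a TATA box. Counted by gene, 9.55% of 27025 genes had a window with a kB match. A match is a description of the letters and no evidence of binding, and the lack of one says nothing of sites elsewhere.

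The signal of Il33 was 145 in p65-/- tumour, 267 in p65-/- pre-injection, 3443 in p65+/+ tumour and 3476 in p65+/+ pre-injection cells. Both p65+/+ arrays were thus high and nearly equal, and both p65-/- arrays were low but above their floors. Il33 was 13.0-fold lower in p65-/- than in p65+/+ cells before injection, a log2 difference of -3.70. In tumour cells it was 23.7-fold lower, a log2 difference of -4.57. The p65-/- signal amounted to 7.67% of the p65+/+ signal before injection and 4.21% in tumour cells. Within a genotype the tumour change was small beside these values. In p65-/- cells the tumour signal was 1.84-fold lower than that before injection, a log2 difference of -0.88. In p65+/+ cells it was 1.01-fold lower. Il33 had 1 probe set, so no second measurement of it was at hand on the array. The authors' deposited table holds signed quotients of log2 levels. For Il33 in p65-/- against p65+/+ cells these were -1.42 before injection and -1.68 in tumour cells. Together with the log2 signals used here, they implied log2 differences of -3.38 and -4.88. For p65-/- tumour against p65-/- pre-injection cells the quotient was -1.18, which implied -1.29, past the 2-fold call. Such values mix both sources and are not calls of the authors.

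**Figure D1:**
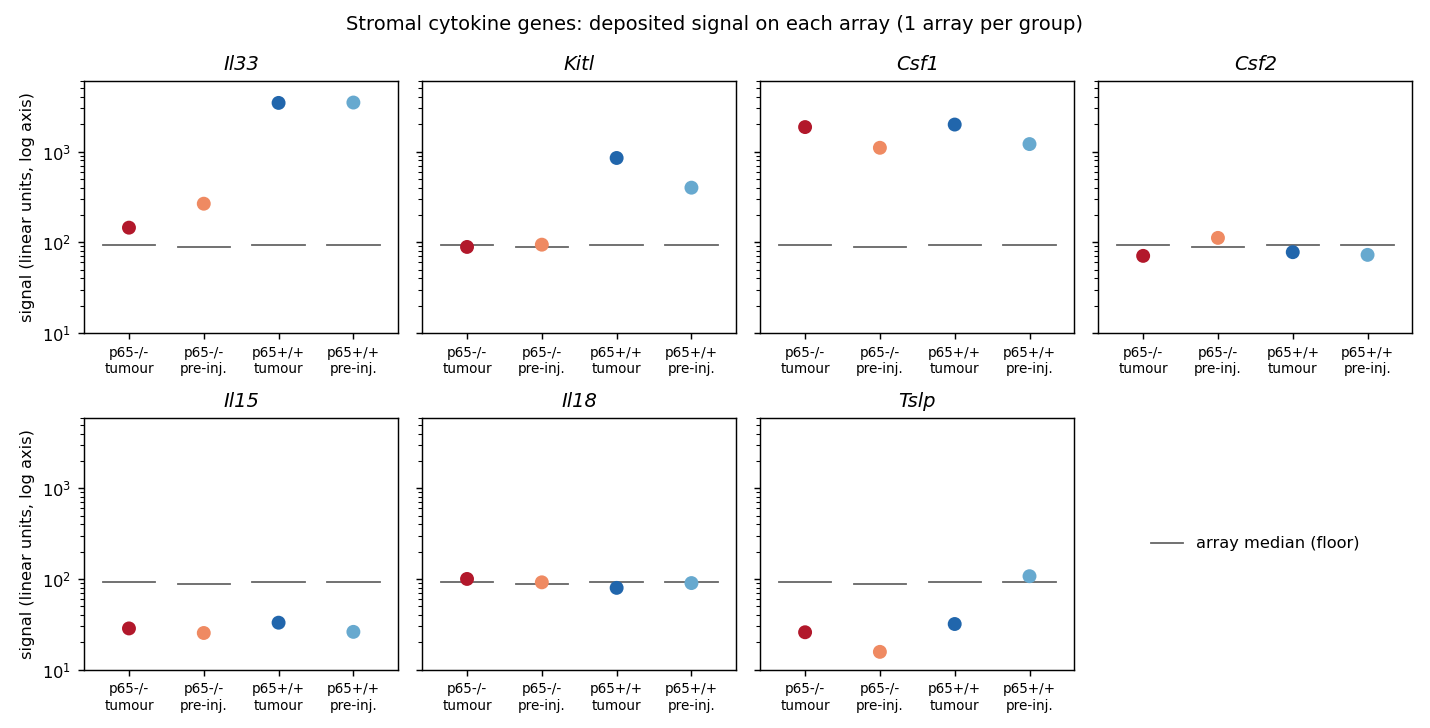
Deposited signal (linear units, log axis) of the 7 stromal cytokine genes with a probe set, 1 point per array for p65-/- tumour, p65-/- pre-injection, p65+/+ tumour and p65+/+ pre-injection cells, with short grey lines at each array's median signal. Il33 and Kitl sit low on both p65-/- arrays, Csf1 sits at 1102 to 1988 on all 4, and Csf2, Il15, Il18 and Tslp lie close to or under the grey lines.

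Kitl, represented by probe set 1415855_at, had a signal of 88.9 in p65-/- tumour, 94.2 in p65-/- pre-injection, 851 in p65+/+ tumour and 400.4 in p65+/+ pre-injection cells. The p65-/- signals lay within a few units of their floors, while the p65+/+ tumour array was the highest. Kitl was 4.25-fold lower in p65-/- than in p65+/+ cells before injection and at least 9.18-fold lower in tumour cells. With the floor at the 70th percentile these log2 differences, -2.09 and -3.20, became -1.31 and -2.16, still past the call. In p65+/+ cells it was 2.12-fold higher in tumour than in pre-injection cells, a log2 difference of 1.09. In p65-/- cells the log2 difference was -0.02 with the tumour array set to its floor, so no direction was measured there. A second Kitl probe set, 1448117_at, had signals of 52.9 in p65-/- tumour, 47.1 in p65-/- pre-injection, 424 in p65+/+ tumour and 203 in p65+/+ pre-injection cells. It gave the same order between genotypes, at least 2.31-fold lower in p65-/- cells before injection and at least 4.58-fold lower in tumour cells, and was 2.09-fold higher in p65+/+ tumour than in p65+/+ pre-injection cells.

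The other Kitl probe sets were dimmer. Probe set 1415854_at had signals of 23.1 in p65-/- tumour, 22.6 in p65-/- pre-injection, 145 in p65+/+ tumour and 65.4 in p65+/+ pre-injection cells, so only the p65+/+ tumour array passed its floor. Probe set 1426152_a_at was above the floor on every array, at 111 in p65-/- tumour, 118 in p65-/- pre-injection, 156 in p65+/+ tumour and 113 in p65+/+ pre-injection cells. This probe set passed 2-fold in none of the 4 comparisons, and before injection its log2 difference between p65-/- and p65+/+ cells was 0.07. The log2 difference derived for it from the authors' deposited table was -4.83 in tumour cells, against -0.49 from the signals, so the sources disagree on this probe set. The Kitl call between genotypes thus rested on 2 of its 4 probe sets in each state. With all 4 averaged, the log2 difference before injection was -0.83, short of the call, and that in tumour cells was -1.70. The p65+/+ tumour change was then 0.94, also short of the call.

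Csf1 was measured by 4 probe sets, all above the floor on every array. The brightest, 1460220_a_at, had a signal of 1865 in p65-/- tumour, 1102 in p65-/- pre-injection, 1988 in p65+/+ tumour and 1211 in p65+/+ pre-injection cells. The tumour arrays were the higher pair. Csf1 was 1.69-fold higher in p65-/- tumour than in p65-/- pre-injection cells and 1.64-fold higher in p65+/+ tumour than in p65+/+ pre-injection cells. Over the 4 probe sets the log2 difference was 0.43 to 0.80 in p65-/- cells and 0.65 to 0.89 in p65+/+ cells. Both changes had the same sign in every probe set and fell short of the 2-fold call. Between genotypes the log2 difference over the 4 probe sets was -0.21 to -0.06 before injection and -0.53 to -0.09 in tumour cells, p65-/- minus p65+/+. Only the differences between tumour and pre-injection cells kept their sign under every alternative. The genotype difference before injection was -0.14 for the brightest probe set as deposited but 0.30 after quantile normalization and 0.23 after scaling to the 75th percentile, and that in tumour cells was -0.09 as deposited and 0.05 after quantile normalization. No direction between genotypes was therefore read for Csf1. As a measure of how far probe sets of a gene differ within these arrays, the pooled SD of their log2 differences over all genes with several compared probe sets was 0.48 between genotypes before injection and 0.32 in tumour cells, 0.40 for the p65-/- tumour change and 0.19 for the p65+/+ tumour change. It holds no spread between cultures, and whether the probe sets of a gene read the same transcripts was not tested.

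**Figure D2:**
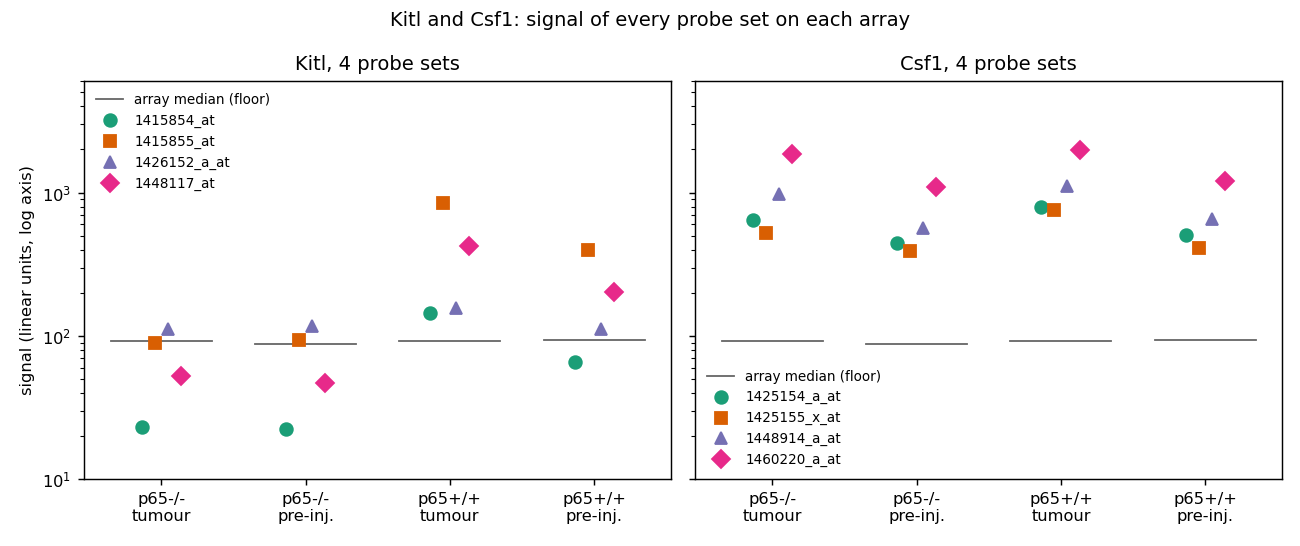
Signal (linear units, log axis) of the 4 probe sets of Kitl and the 4 of Csf1 on each array, 1 symbol per probe set, with grey lines at each array's median. For Kitl, 3 probe sets are lower on both p65-/- arrays and 1426152_a_at stays between 111 and 156, whereas the 4 Csf1 probe sets move together, with the tumour arrays above the pre-injection arrays.

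The remaining members gave little signal. Csf2 stood at 70.9 in p65-/- tumour, 112 in p65-/- pre-injection, 77.9 in p65+/+ tumour and 72.7 in p65+/+ pre-injection cells. Only the p65-/- pre-injection array passed its floor, the array that stood apart. Il18 stood at 100.2 in p65-/- tumour, 91.95 in p65-/- pre-injection, 79.9 in p65+/+ tumour and 90.2 in p65+/+ pre-injection cells. Its p65-/- signals were just above their floors and its p65+/+ signals just under them. Il15 was under the floor on every array, at 28.5 in p65-/- tumour, 25.4 in p65-/- pre-injection, 33.0 in p65+/+ tumour and 26.2 in p65+/+ pre-injection cells.

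Tslp had signals of 25.9 in p65-/- tumour, 15.7 in p65-/- pre-injection, 31.9 in p65+/+ tumour and 107 in p65+/+ pre-injection cells. The p65+/+ pre-injection array was the only one to pass its floor. With the floor, Tslp was at least 1.22-fold lower in p65-/- than in p65+/+ cells before injection, and at least 1.16-fold lower in p65+/+ tumour than in p65+/+ pre-injection cells. Without a floor these log2 differences were -2.77 and -1.75, past the call, and they rest on Tslp signals under the floor. No call was made for Csf2, Il15, Il18 or Tslp with the floor, and a change in these 4 genes was not detectable at this signal rather than shown to be absent.

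The members' counts are set beside those of all genes, as a description, since the members were listed with earlier results known. Before injection, 2 of the 6 members compared were lower in p65-/- cells, Il33 and Kitl, and 0 were higher, while 18.1% of all 12597 genes compared were lower and 2.11% were higher. Their median log2 difference was -0.21, and that of all genes was -0.02. In tumour cells, 2 of the 4 members compared were lower in p65-/- cells, again Il33 and Kitl, and 0 were higher, while 5.62% of 11988 genes were lower and 2.74% higher. The medians were -1.64 for the members and 0.01 for all genes. The share of lower genes was smaller in tumour cells than before injection, and the Il33 and Kitl differences were larger there.

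In p65-/- cells, 0 of the 5 members compared differed by 2-fold between tumour and pre-injection cells, while 13.9% of 12444 genes were higher in tumour cells and 1.5% were lower. Their median was -0.02, against 0.03 for all genes. In p65+/+ cells, 1 of the 4 members compared was higher in tumour cells, Kitl, and 0 were lower, while 0.991% of 11706 genes were higher and 0.777% were lower. The medians were 0.35 and -0.01. These comparisons are not independent: the p65-/- pre-injection array enters both the p65-/- tumour change and the genotype difference before injection, and the p65+/+ tumour array enters both the p65+/+ tumour change and the tumour-cell genotype difference. With p65-/- tumour cells in place of p65-/- pre-injection cells against p65+/+ pre-injection cells, which mixes genotype with tumour state, Il33 and Kitl were again the 2 members lower, and the Il33 log2 difference was -4.58.

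**Figure D3:**
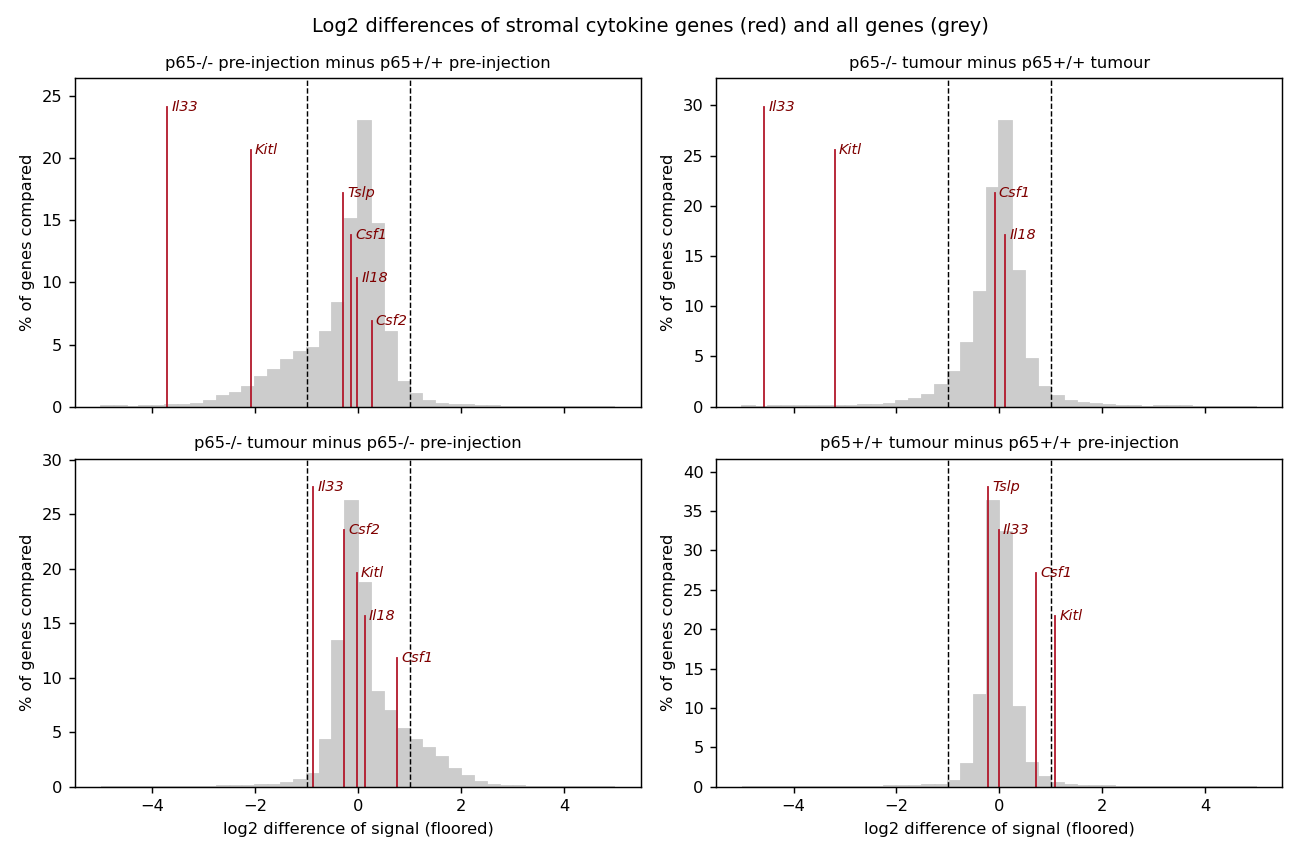
Percent of all genes compared (grey bars, bins of log2 difference) and the members compared (red lines, whose heights carry no value) in the 4 comparisons, with dashed lines at the 2-fold call. Il33 and Kitl lie left of the call in both genotype comparisons, and Kitl lies just right of it in p65+/+ tumour minus p65+/+ pre-injection cells.

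Scaling changed the p65-/- pre-injection comparisons for all genes. The median log2 difference of all genes between p65-/- and p65+/+ cells before injection was 0.24 after quantile normalization and 0.35 after scaling to the 75th percentile. Genes lower and higher numbered 2283 and 266 as deposited, 1559 and 891 after quantile normalization, and 1506 and 803 after scaling. For the p65-/- tumour change the medians were -0.18 and -0.25 under those settings. Genes lower and higher there numbered 187 and 1734 as deposited, 431 and 1207 after quantile normalization, and 360 and 1110 after scaling. Il33 was then also called lower in p65-/- tumour than in p65-/- pre-injection cells, at a log2 difference of -1.22 after quantile normalization and -1.16 after scaling. The Il33 genotype differences were then -3.33 before injection under both settings and -4.49 in tumour cells under both. Those of Kitl were -1.87 and -1.72 before injection and -3.03 and -3.12 in tumour cells, so each call held.

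Among the receptors and binding partners of these cytokines, 14 of 15 had a probe set. In p65-/- against p65+/+ cells, 1 of 8 compared was lower and 0 higher before injection, and 2 of 7 were lower and 1 higher in tumour cells. Over all genes 18.1% were lower and 2.11% higher before injection, and 5.62% lower and 2.74% higher in tumour cells, so the count before injection was near the share of all genes. Il1rap, the signalling chain shared by the receptors of Il33 and of other family members, was the lower gene in both states. Its signal was 86.1 in p65-/- tumour, 70.6 in p65-/- pre-injection, 759 in p65+/+ tumour and 606 in p65+/+ pre-injection cells. The p65-/- arrays were under the floor, so Il1rap was at least 6.91-fold lower before injection and at least 8.19-fold lower in tumour cells. With all its probe sets averaged, the log2 differences were -0.95 and -0.98, just short of the call.

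Sigirr, an inhibitory receptor of the same family, had a signal of 107 in p65-/- tumour, 330.3 in p65-/- pre-injection, 308 in p65+/+ tumour and 249 in p65+/+ pre-injection cells. The p65-/- tumour array was the low one, 2.87-fold below p65+/+ tumour and 3.08-fold below p65-/- pre-injection cells. Both calls were lost with the floor at the 70th percentile. Crlf2, the receptor chain of Tslp, stood at 199 in p65-/- tumour, 152 in p65-/- pre-injection, 36.4 in p65+/+ tumour and 64.1 in p65+/+ pre-injection cells. It was at least 2.15-fold higher in p65-/- than in p65+/+ tumour cells, a call lost with the floor at the 70th percentile. Kit, the receptor of the Kitl product, was under the floor on every array, at 48.8 to 63.2. Csf1r, the receptor of the Csf1 product, was at 243 in p65-/- tumour, 236 in p65-/- pre-injection, 198 in p65+/+ tumour and 200.3 in p65+/+ pre-injection cells and passed 2-fold in no comparison. In p65-/- tumour against p65-/- pre-injection cells 1 of 7 was lower, Sigirr, and 0 were higher, beside 1.5% lower and 13.9% higher over all genes. In p65+/+ tumour against p65+/+ pre-injection cells 0 of 5 were lower and 0 higher, beside 0.777% lower and 0.991% higher over all genes.

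Enzymes that process or shed these cytokines had 11 of 13 genes with a probe set. Adam10 and Adam17 encode membrane proteases that release surface proteins. Adam17 had a signal of 634 in p65-/- tumour, 286 in p65-/- pre-injection, 743 in p65+/+ tumour and 658 in p65+/+ pre-injection cells. Adam10 stood at 751 in p65-/- tumour, 300.5 in p65-/- pre-injection, 1064 in p65+/+ tumour and 1149.6 in p65+/+ pre-injection cells. For both genes the p65-/- pre-injection array was the low one. Adam10 was 3.83-fold and Adam17 2.30-fold lower in p65-/- than in p65+/+ cells before injection, and 2.50-fold and 2.22-fold higher in p65-/- tumour than in p65-/- pre-injection cells. Both Adam17 calls were lost after quantile normalization and after scaling to the 75th percentile, as was the Adam10 tumour call after quantile normalization and with all its probe sets averaged. Neither gene was called between p65-/- and p65+/+ tumour cells.

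Casp4, an inflammatory caspase, had a signal of 72.5 in p65-/- tumour, 30.5 in p65-/- pre-injection, 254 in p65+/+ tumour and 375 in p65+/+ pre-injection cells. It was at least 4.27-fold lower in p65-/- than in p65+/+ cells before injection and at least 2.74-fold lower in tumour cells, the second call being lost with the floor at the 70th percentile. In all, 3 of 10 of these enzymes were lower in p65-/- than in p65+/+ cells before injection and 1 of 10 in tumour cells, with 0 higher in either. The shares of all genes lower were 18.1% and 5.62%, and those higher were 2.11% and 2.74%. In p65-/- tumour against p65-/- pre-injection cells 2 of 9 were higher and 0 lower, beside 13.9% higher and 1.5% lower over all genes. In p65+/+ tumour against p65+/+ pre-injection cells 0 of 10 were called, beside 0.777% lower and 0.991% higher over all genes. Casp1, which cleaves the Il18 precursor, was under the floor on every array.

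**Figure D4:**
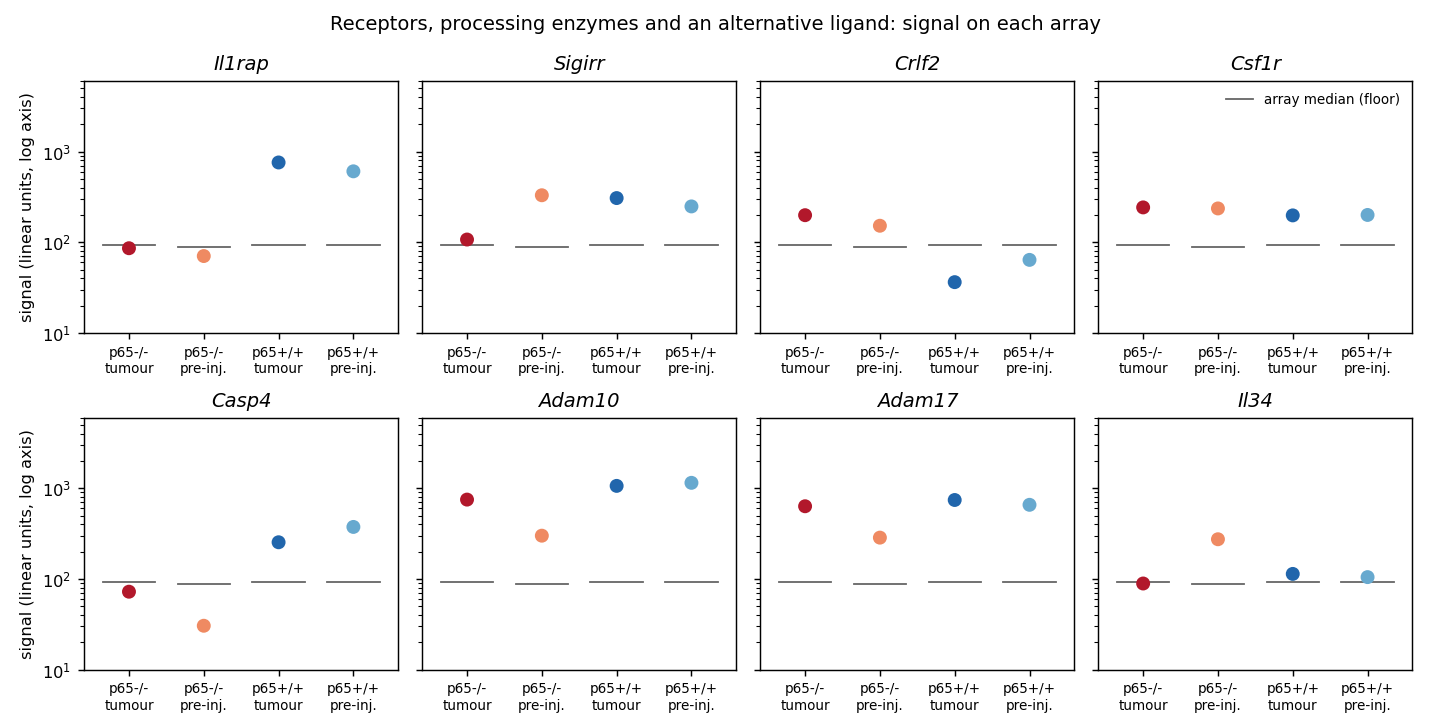
Signal (linear units, log axis) of 4 receptor genes (Il1rap, Sigirr, Crlf2, Csf1r), 3 processing enzymes (Casp4, Adam10, Adam17) and Il34 on each array, 1 point per array, with grey lines at each array's median. Il1rap and Casp4 sit under the grey line on both p65-/- arrays, Adam10 and Adam17 are low on the p65-/- pre-injection array alone, and Il34 is high on that array alone.

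Other stromal cytokines were set beside the members, with 13 of 15 genes measured. In p65-/- against p65+/+ cells, 6 of 11 compared were lower and 1 higher before injection, and 3 of 11 were lower and 1 higher in tumour cells. Over all genes 18.1% were lower and 2.11% higher before injection, and 5.62% lower and 2.74% higher in tumour cells. In p65-/- tumour against p65-/- pre-injection cells 1 of 8 was lower and 2 were higher, beside 1.5% lower and 13.9% higher over all genes. The lower gene was Il34, a call lost with the floor at the 70th percentile. The higher genes were Cxcl12 and Lif, and the Lif call was lost after quantile normalization and after scaling to the 75th percentile. In p65+/+ tumour against p65+/+ pre-injection cells 1 of 11 was lower and 1 higher, beside 0.777% lower and 0.991% higher over all genes. The leukaemia inhibitory factor gene Lif was lower in both states, at 470.5 in p65-/- tumour, 206 in p65-/- pre-injection, 2049 in p65+/+ tumour and 1487 in p65+/+ pre-injection cells. Angpt1, a ligand of the endothelial receptor Tek, was at 18.9 in p65-/- tumour, 19.8 in p65-/- pre-injection, 319 in p65+/+ tumour and 345 in p65+/+ pre-injection cells. It was at least 3.94-fold lower in p65-/- cells before injection and at least 3.44-fold lower in tumour cells, the tumour call being lost with the floor at the 70th percentile.

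Il6, a pleiotropic inflammatory cytokine, was at 68.1 in p65-/- tumour, 9.44 in p65-/- pre-injection, 1124 in p65+/+ tumour and 254 in p65+/+ pre-injection cells. It was 4.43-fold higher in p65+/+ tumour than in p65+/+ pre-injection cells and under the floor on both p65-/- arrays. It was at least 2.89-fold lower in p65-/- than in p65+/+ cells before injection, a call lost with the floor at the 70th percentile, and at least 12.1-fold lower in tumour cells. Cxcl12, a chemokine that holds blood stem cells in the marrow, did not keep its direction between the states. It stood at 2224 in p65-/- tumour, 281 in p65-/- pre-injection, 203 in p65+/+ tumour and 969 in p65+/+ pre-injection cells. Cxcl12 was therefore 3.45-fold lower in p65-/- than in p65+/+ cells before injection and 10.98-fold higher in tumour cells. The first of these calls was lost with its probe sets averaged, at a log2 difference of -0.97, and with p65-/- tumour cells in place of p65-/- pre-injection cells its sign turned, at 1.20. Il34 encodes the second known ligand of Csf1r. It had a signal of 89.3 in p65-/- tumour, 274 in p65-/- pre-injection, 114 in p65+/+ tumour and 105 in p65+/+ pre-injection cells, and was 2.61-fold higher in p65-/- than in p65+/+ cells before injection. The high array was the one that stood apart, and the call was lost with the floor at the 70th percentile.

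Genes with the pattern nearest to a member were found over the 4 arrays, by the root mean square difference of floored log2 signals centred on each gene's mean, among 18186 other genes. Such a ranking over 4 arrays is a description only. Nearest to Il33 were Gpr149 at 0.19, Ptges at 0.19, Slpi at 0.32, Zic1 at 0.36 and Emb at 0.39. Ptges, the prostaglandin E synthase gene, had signals of 57.7 in p65-/- tumour, 124 in p65-/- pre-injection, 2015 in p65+/+ tumour and 1666 in p65+/+ pre-injection cells. Slpi, a secreted protease inhibitor, had 103 in p65-/- tumour, 105 in p65-/- pre-injection, 1556 in p65+/+ tumour and 1574 in p65+/+ pre-injection cells. These genes share with Il33 high signals on both p65+/+ arrays and low signals on both p65-/- arrays.

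Nearest to Kitl were Ttc39c at 0.10, Acpp at 0.11, Hmgn5 at 0.21, C1qtnf12 at 0.24 and Hgf at 0.25. Hgf, the hepatocyte growth factor gene of stromal cells, had signals of 46.8 in p65-/- tumour, 51.1 in p65-/- pre-injection, 547 in p65+/+ tumour and 302 in p65+/+ pre-injection cells. The p65+/+ tumour array was the highest, as for Kitl. Nearest to Csf1 were Rab30 at 0.04, Chka at 0.04, Slc38a1 at 0.04, Fzd5 at 0.05 and Frmd6 at 0.06. Slc38a1, an amino acid transporter gene, had signals of 560.3 in p65-/- tumour, 315 in p65-/- pre-injection, 577 in p65+/+ tumour and 334 in p65+/+ pre-injection cells, so the tumour arrays were the higher pair in both genotypes.

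**Figure D5:**
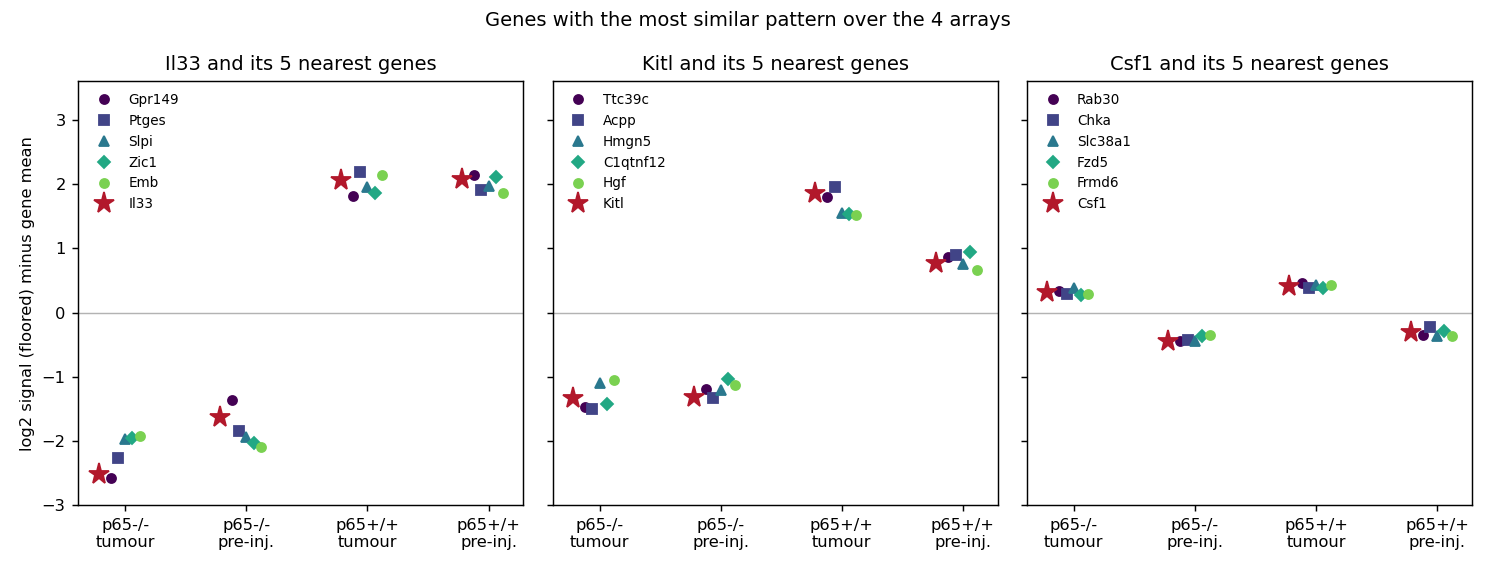
Floored log2 signal minus the gene's mean over the 4 arrays, for Il33, Kitl and Csf1 (stars) and the 5 nearest genes of each (other symbols, spread sideways for clarity). The Il33 group is split by genotype, the Kitl group by genotype with the p65+/+ tumour array on top, and the Csf1 group by tumour state within a narrow range.

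Cells of the mouse that hosted a tumour could carry these cytokines or their receptors, so marker lists of other cell types were read on each array. Tumour cells had been kept in hygromycin, which kills cells without the resistance gene of the retrovirus. How far this removed cells of the host was not tested. Of 10 macrophage markers, 5 were at or above the floor in p65-/- tumour, 3 in p65-/- pre-injection, 4 in p65+/+ tumour and 3 in p65+/+ pre-injection cells. Their summed signals were 1229.7 in p65-/- tumour, 1183 in p65-/- pre-injection, 1561 in p65+/+ tumour and 1497 in p65+/+ pre-injection cells. Ptprc, Cd68, Adgre1, Itgam and Lyz2 were under the floor on all 4 arrays. Cd14, Laptm5 and Csf1r were at or above it on all 4. Cd14 had signals of 220 in p65-/- tumour, 330 in p65-/- pre-injection, 809 in p65+/+ tumour and 743 in p65+/+ pre-injection cells. It was 2.25-fold lower in p65-/- than in p65+/+ cells before injection and 3.68-fold lower in tumour cells. Tyrobp was at 278 in p65-/- tumour against 63.7 in p65-/- pre-injection cells. The part of these 2 genes in the member values was not tested. Summed mast cell markers were 648 in p65-/- tumour, 735 in p65-/- pre-injection, 719 in p65+/+ tumour and 702 in p65+/+ pre-injection cells, and between 2 and 5 of 8 were at or above the floor. Kit, Fcer1a and Tpsb2 were under it on all 4 arrays, while Cma1 and Hdc were at or above it on all 4. Endothelial markers summed to 784 in p65-/- tumour, 678 in p65-/- pre-injection, 639 in p65+/+ tumour and 630.3 in p65+/+ pre-injection cells. Of these 8, 2 were at or above the floor on each p65-/- array and 1 on each p65+/+ array, and Cdh5, Kdr, Tek, Tie1, Emcn and Vwf were under it on all 4 arrays. The gene that differed, Pecam1, lay close to the floor throughout. It was at 99.9 in p65-/- tumour, 94.4 in p65-/- pre-injection, 82.85 in p65+/+ tumour and 85.2 in p65+/+ pre-injection cells. Epithelial markers summed to 2718 in p65-/- tumour, 820.0 in p65-/- pre-injection, 458 in p65+/+ tumour and 488 in p65+/+ pre-injection cells, with 4 of 8 at or above the floor on each p65-/- array and 0 on each p65+/+ array. Several of these passed the floor only narrowly. Krt8 and Krt5 were at 93.8 and 105.7 in p65-/- tumour and at 94.3 and 96.5 in p65-/- pre-injection cells, where Cldn4 was at 96.8. Most of the p65-/- tumour sum was the keratin gene Krt19, at 2194 in p65-/- tumour against 338 in p65-/- pre-injection cells, and Krt18 was at 127 against 30.7. The epithelial genes Epcam and Cdh1 were under the floor on all 4 arrays. Krt19 moved with the p65-/- genotype and, in p65-/- cells, with tumour state, and its part in the Il33, Kitl and Csf1 values was not tested.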

How the data were processed

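The authors deposited a series matrix of linear signal intensity, 1 value for each probe set on each array, from 6 ug of Trizol-extracted total RNA labelled with biotin, per the labels' protocols. The sources used here do not say how probes were summarised or arrays scaled. Signals were taken as log2 with no further normalization. Each gene took the probe set of its own (34945 had 1 gene in the 2016 annotation) that was brightest on average, with suffixes _x_at and _s_at only where there was no other.

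A second table, which the authors deposited as ratios, was treated as a score. Its values were found to be signed quotients of the log2 levels of 2 arrays, within 0.02 for 70.3% to 89.1% of probe sets reaching 300 on each of the 2 arrays, and for 24.1% to 37.9% of all. A log2 difference was derived from each quotient and the lower log2 signal of the 2 arrays, as an alternative for probe sets above both floors. It therefore mixes both sources. Scanner files were not used, for want of a map of cells to probe sets.

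Named were the 8 members, the 5 genes nearest to Il33, Kitl and Csf1, and up to 5 called genes by size from each of 3 lists. Members and lists were chosen with earlier results of these data known. The calculations were tested on simulated data. Alternatives were 2 scalings, 2 other floors, the mean of all probe sets, the authors' table and, for 1 comparison, an exchanged array. Python 3.11.15 was used with numpy 2.4.6 and pandas 2.3.3.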

Additional observations from a re-analysis of the deposited data

Results flagged for a closer look

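Kitl is listed here because its computed log2 differences between tumour and pre-injection cells had opposite signs in the genotypes, -0.02 in p65-/- cells and 1.09 in p65+/+ cells, a difference of -1.11. The p65-/- tumour signal, 88.9, had been set to its floor of 92.7, so the sign of -0.02 carries no information. Without a floor the p65-/- change was -0.08 for this probe set, 0.17 for 1448117_at and 0.03 for 1415854_at. Probe set 1426152_a_at, above the floor on every array, gave -0.09 from the signals. The value derived for it from the authors' deposited table was -1.50, past the call, so the sources disagree there. By the deposited signals, Kitl was thus higher in p65+/+ tumour than in p65+/+ pre-injection cells, with no measurable change in p65-/- cells. The difference between the genotypes was not tested.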

How the results depend on the processing

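The number of members called stayed within 1.5 times the reported count in 18 of 25 recalculations. For p65-/- tumour against p65-/- pre-injection cells, with 0 called, 1 was called after quantile normalization, 1 after scaling to the 75th percentile and 1 in the authors' deposited table, each time Il33, lower. For p65+/+ tumour against p65+/+ pre-injection cells, with 1 called, 2 were called with no floor, when Tslp joined Kitl, and 0 with the mean of all probe sets. Before injection, with 2 called between genotypes, 1 was called with the mean of all probe sets, when Kitl fell short. In tumour cells, with 2 called, 1 was called in the authors' deposited table. Kitl was left out of that count because its p65-/- signal was under the floor used here. The table does hold a quotient for Kitl probe set 1415855_at, -1.54, in the direction of lower in p65-/- tumour cells. Of 102 recalculated member values, 31 belonged to called members. Of these 31, 29 were called in the same direction and 0 turned the call round. For all genes, the log2 differences derived from the authors' deposited table gave other counts. In p65+/+ tumour against p65+/+ pre-injection cells 615 were lower and 605 higher, compared with 91 and 116. Between genotypes in tumour cells 1161 were lower and 955 higher, compared with 674 and 328. Exchanging the p65-/- pre-injection for the p65-/- tumour array left 469 lower and 226 higher, compared with 2283 and 266. No paired analysis was possible because each group has 1 array. No replicate could be left out for the same reason.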
